A study of Mus musculus with 13 samples.

Results

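A set of 10 genes of oxidant production and removal was followed through infarcted and sham-operated mouse hearts. It comprised 3 genes of the NADPH oxidase complexes (Nox4, Cybb and Cyba), 3 superoxide dismutases (Sod1, Sod2 and Sod3), catalase (Cat), 2 glutathione peroxidases (Gpx1 and Gpx3) and haem oxygenase 1 (Hmox1). The genes, and the gene lists below, were chosen by name with earlier results of these data known. All 10 genes were found among 36172 gene entries. RNA came from left ventricle outside the ischaemic zone of C57BL/6JO1aHsd mice that were 8 to 10 weeks old when treatment began. One group had permanent ligation of the left anterior descending coronary artery, which causes a myocardial infarction (MI), and received FG-3149, a mouse monoclonal antibody against connective tissue growth factor, labelled at 10 mg/kg (MI+FG-3149, n = 5). Another had the same ligation and a control antibody, labelled at 10 mg/kg (MI+IgG, n = 5). The third had sham surgery and no antibody (n = 3), so ligation and antibody treatment cannot be told apart in a comparison with sham. The labels give no mutant allele for any group and one time point, 1W+6W, which they do not spell out.

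NADPH oxidases move electrons from NADPH across a membrane onto oxygen. Cybb encodes NOX2, the catalytic subunit of the phagocyte enzyme, which needs cytosolic partners to become active, whereas the NOX4 enzyme is largely active once it is made and releases mainly hydrogen peroxide. Both are stabilised by p22phox, the product of Cyba. Superoxide dismutases turn superoxide into hydrogen peroxide in the cytosol (Sod1), the mitochondrial matrix (Sod2) and the extracellular space (Sod3), and catalase and the glutathione peroxidases remove the peroxide. Haem oxygenase 1 degrades haem, and its gene is a classic target of the transcription factor NRF2.

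The promoters of both oxidase catalytic subunits are shown because they differ in base composition, and that of Sod1 because it holds the antioxidant response element core searched for, the kind of element that NRF2 binds. Each stretch is the 250 bases before the RefSeq transcript start on GRCm38.p6, written 5′ to 3′ on the strand of the gene, with motif matches in capitals.
Nox4, chr7:87246399-87246648, plus strand: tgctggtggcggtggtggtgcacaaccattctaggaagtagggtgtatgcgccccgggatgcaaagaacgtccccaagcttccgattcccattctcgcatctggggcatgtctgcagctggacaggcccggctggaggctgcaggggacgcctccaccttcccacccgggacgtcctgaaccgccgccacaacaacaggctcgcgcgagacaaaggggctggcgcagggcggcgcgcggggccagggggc
Cybb, chrX:9469325-9469574, minus strand: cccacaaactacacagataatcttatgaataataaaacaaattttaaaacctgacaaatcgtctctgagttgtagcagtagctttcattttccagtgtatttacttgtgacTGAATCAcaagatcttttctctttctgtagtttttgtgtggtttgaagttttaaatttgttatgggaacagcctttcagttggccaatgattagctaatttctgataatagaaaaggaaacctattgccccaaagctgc
Sod1, chr16:90220512-90220761, plus strand: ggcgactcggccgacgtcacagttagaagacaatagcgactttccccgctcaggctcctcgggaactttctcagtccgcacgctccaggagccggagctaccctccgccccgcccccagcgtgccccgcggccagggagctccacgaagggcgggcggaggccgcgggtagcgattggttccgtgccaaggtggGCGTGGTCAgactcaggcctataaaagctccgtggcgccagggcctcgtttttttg
RefSeq windows from 250 bases before to 50 bases after the start were matched for 8 of the 10 genes, the exceptions being Sod3 and Hmox1. The searches used TGACNNNGC (antioxidant response element core) and TGANTCA (AP-1) on both strands. The antioxidant response element core occurs in 12.4% and the AP-1 pattern in 7.81% of 32851 mouse windows. Among the 8 windows, Sod1 held the antioxidant response element core, on the minus strand, and Cybb held the AP-1 pattern. The AP-1 search left the middle base open, and the Cybb match has A there, so it is a match to the search pattern only. The other 6 windows held neither. The Nox4 window was 68.3% G or C with 24 CG dinucleotides, and the Cybb window was 35.3% G or C with 1. The RefSeq start lies 146 bases before the gene start of the count table for Nox4, 20 bases inside the gene for Sod1 and at the same base for the other 6. A match is a description of letters and shows no binding.

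Library totals were 10954901 to 12794791 counts in MI+FG-3149, 13084651 to 17567207 in MI+IgG and 12025845 to 14999773 in sham, so both infarcted groups differed in depth without overlap. Heart muscle markers were abundant throughout. The summed level of 10 cardiomyocyte genes was 86664 to 96018 CPM (counts scaled to the library total) in MI+FG-3149, 82752 to 90238 in MI+IgG and 97254 to 104910 in sham. The first principal component of log2 CPM set sham apart, and MI+IgG replicate 1 stood nearest to sham among the infarcted libraries, at -2.4, against -24.8 to -16.5 in the other 4 MI+IgG libraries. That library was also the lowest of its group for 7 of the 10 genes. MI+FG-3149 replicate 3 was the highest of its group for 7 of them and stood apart on the second component, at -25.7, against -11.2 to 7.2 in the other 4 MI+FG-3149 libraries. Its 6 adipocyte markers summed to 41.5 CPM, against at most 3.97 in those 4, while MI+IgG replicate 5 had 48.5. Coverage along transcripts moved with the groups: over 6233 single-transcript genes, the median share of reads in the last exon was 42.6% to 44.4% in MI+FG-3149, 44.3% to 46.3% in MI+IgG and 47.4% to 48.3% in sham.

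In the remote myocardium of infarcted hearts, 6 of the 10 genes were higher than in sham in either infarcted group: Nox4, Cybb, Sod3, Gpx1, Gpx3 and Hmox1. Nox4 had the largest difference of the 10, and the mitochondrial Sod2 was lower. In MI+IgG over sham, edgeR's quasi-likelihood test called 8 genes at a Benjamini-Hochberg adjusted p under 0.05, namely those 6 as higher and Sod1 and Sod2 as lower. Of all 13434 genes tested, 33.7% were called in this comparison, 17.8% as higher and 15.9% as lower. The MI+IgG and sham libraries did not overlap for 9 of the 10 genes, and for 35.8% of all genes. For MI+FG-3149 over sham 7 genes were called, the same 6 as higher and Sod2 as lower, against 29.5% of all genes (15.6% higher and 13.9% lower). The libraries of MI+FG-3149 and sham did not overlap for 7 of the 10 genes, and for 32.2% of all genes. Only Sod1 was called in MI+FG-3149 over MI+IgG, as higher, against 1.07% of all genes (0.916% higher and 0.156% lower). Because the 10 genes were chosen with earlier results known, these shares describe the set and do not test it. All 10 genes passed the filter on low counts. The comparisons with sham share its 3 libraries.

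**Figure D1:**
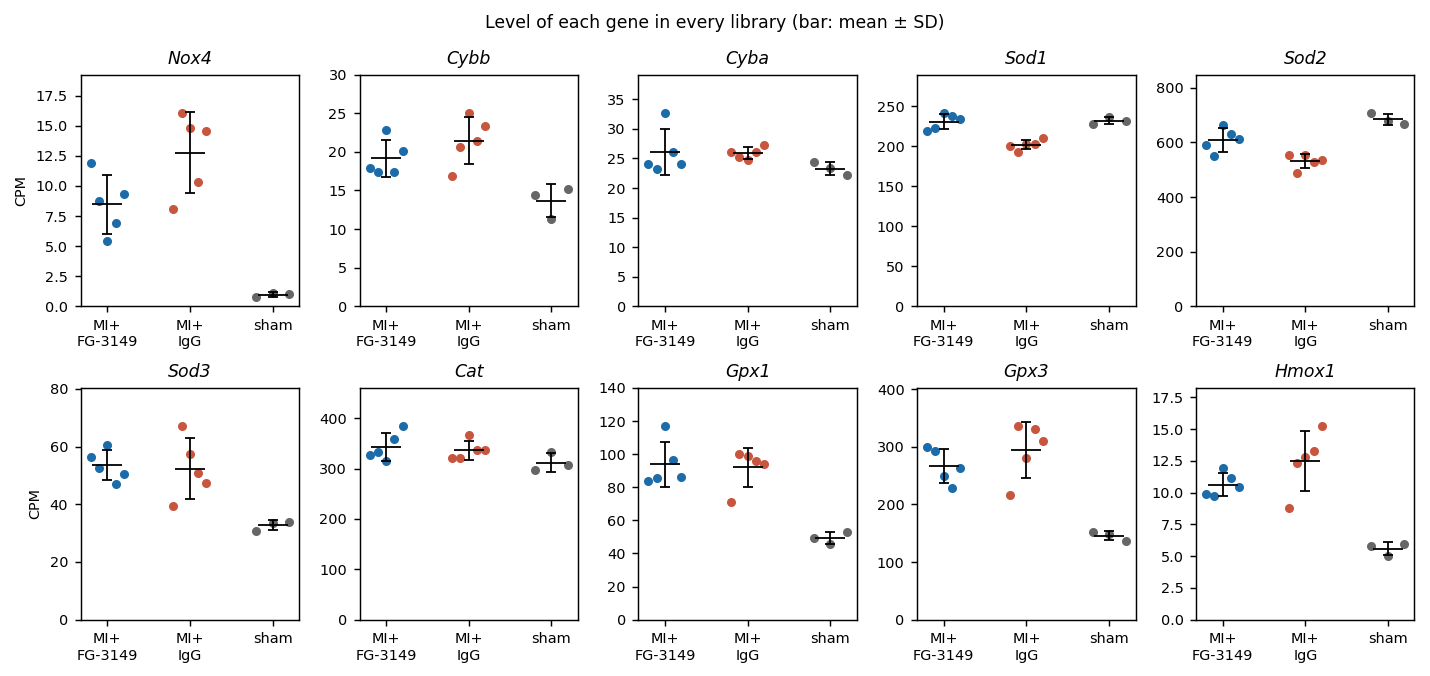
CPM of each gene (y axis, from 0) in every library of MI+FG-3149, MI+IgG and sham (x axis), with the mean and SD as bars. Nox4 lay at 5.46 CPM or more in every infarcted library and at 1.15 CPM or less in sham, while Cat overlapped between all 3 groups.

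**Figure D2:**
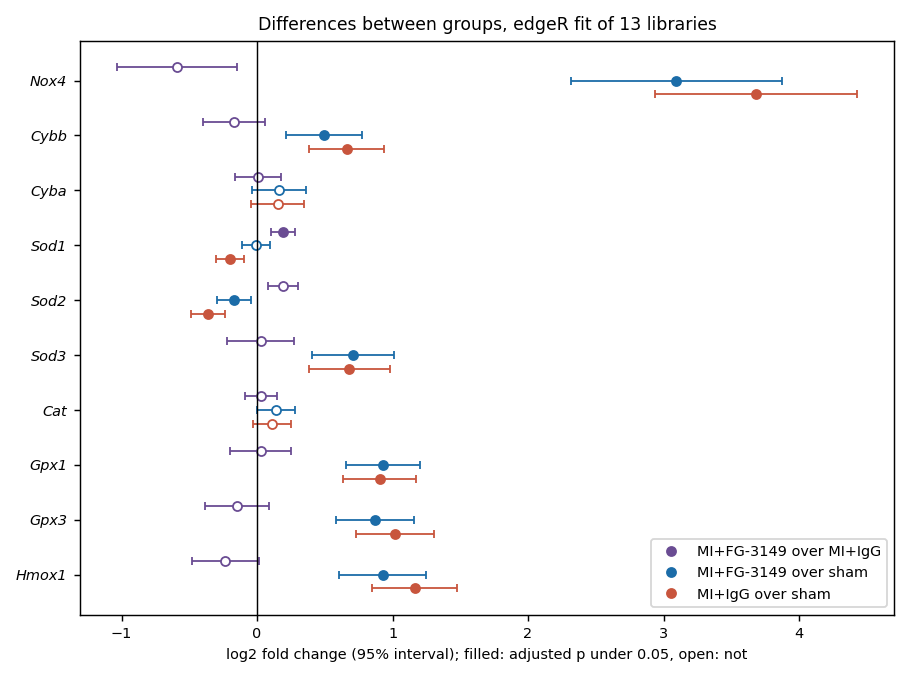
Log2 fold change (x axis) of each gene in MI+FG-3149 over MI+IgG, MI+FG-3149 over sham and MI+IgG over sham, with the 95% interval of the fit as a line and filled points where the adjusted p was under 0.05. Sod1 has the only filled point for MI+FG-3149 over MI+IgG.

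Levels were compared between genes per transcript length, as RPKM. Sod1 was the most abundant in all 13 libraries and averaged 352 ± 9.76 RPKM in MI+FG-3149, 315 ± 8.66 in MI+IgG and 357 ± 2.55 in sham (SD). Sod2, Gpx3 and Cat followed in an order that varied between libraries. Gpx1, Cyba, Sod3 and Hmox1 held places 5, 6, 7 and 8 in every library, and Cybb and Nox4 shared the last places. The 2 catalytic oxidase subunits were therefore the rarest of the set. Nox4 averaged 2.40 ± 0.716 RPKM in MI+FG-3149, 3.68 ± 0.949 in MI+IgG and 0.279 ± 0.0478 in sham. As a percentage of Cybb RPKM, Nox4 stood at 32.4 to 89.8 in MI+FG-3149 (median 62.9), 64.9 to 105 in MI+IgG (median 80.3) and 7.45 to 13.9 in sham (median 8.85). Neither infarcted group overlapped sham in this ratio, and both infarcted groups overlapped each other.

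**Figure D3:**
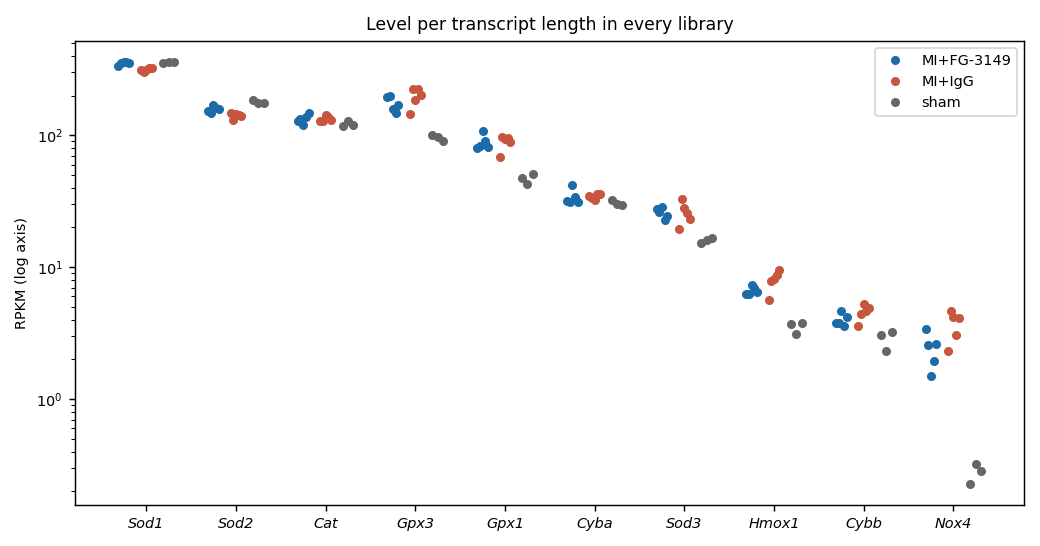
RPKM of each gene in every library, on a log axis, with genes ordered by their sham mean. Nox4 spans 0.229 RPKM in a sham library to 4.63 in an MI+IgG library, and Sod1 stays at 302 RPKM or above.

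Nox4, on mouse chromosome 7 (chr7:87246795-87398606, plus strand, mm10), had the largest fold difference from sham of the 10 genes. It had 11.9, 8.78, 5.46, 6.88 and 9.35 CPM in MI+FG-3149 hearts, 8.06, 16.0, 14.8, 10.4 and 14.6 CPM in MI+IgG hearts, and 0.795, 1.15 and 0.994 CPM in sham hearts. Every infarcted library lay above every sham library, and the infarcted groups overlapped. Behind these levels stood 60 to 139 counts per library in MI+FG-3149, 111 to 285 in MI+IgG and 10 to 17 in sham. The log2 fold change of MI+IgG over sham was 3.68 ± 0.35 (SE; adjusted p = 4.13e-06, edgeR), a 12.9-fold difference. That of MI+FG-3149 over sham was 3.09 ± 0.36 (adjusted p = 4.79e-05, edgeR), or 8.54-fold. On log2(RPKM + 1), where a pseudocount of 1 exceeds the sham level, the differences from sham shrank to 1.39 in MI+FG-3149 and 1.84 in MI+IgG on the log2 scale, both called. Between both infarcted groups the mean was lower with FG-3149, at 8.47 ± 2.45 CPM, against 12.8 ± 3.40 with IgG (SD, n = 5 each). This difference was not called: the log2 fold change was -0.59 ± 0.21, with a 95% interval of -1.03 to -0.15 and an adjusted p of 0.216 (edgeR). Without MI+IgG replicate 1, the lowest library of its group, it was -0.71 with an adjusted p of 0.0491, which passed the threshold. Leaving out the lowest library of the higher group widens the difference by itself. In the other 24 of the 25 alternatives Nox4 was not called between the infarcted groups, with an adjusted p of up to 0.421. The last exon held 35.0% to 56.7% of Nox4 exon reads in MI+FG-3149, 36.2% to 47.3% in MI+IgG and 58.3% to 60.0% in sham, and in last-exon counts alone the difference from sham was 2.71 in MI+FG-3149 and 3.29 in MI+IgG on the log2 scale, both called.

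Markers of activated fibroblasts were, like Nox4, higher in both infarcted groups than in sham. Their summed level over 12 genes was 1396 to 2057 CPM in MI+FG-3149, 1891 to 3523 in MI+IgG and 493 to 566 in sham. All 12 were called higher in either infarcted group over sham, against 15.6% of all genes in MI+FG-3149 and 17.8% in MI+IgG. In MI+FG-3149 over MI+IgG 1 (8.33%) was called lower, against 0.156% of all genes. None of the 12 was at 0 in any group. Within MI+IgG the sums were 1891, 3523, 1986, 1933 and 1927 CPM, at Nox4 levels of 8.06, 16.0, 14.8, 10.4 and 14.6 CPM. Within MI+FG-3149 they were 2057, 1978, 1496, 1396 and 1408 CPM, at Nox4 levels of 11.9, 8.78, 5.46, 6.88 and 9.35 CPM. The 8 resting fibroblast markers summed to 3129 to 3630 CPM in MI+FG-3149, 3100 to 4044 in MI+IgG and 2301 to 2455 in sham. Of these, 6 (75%) were called higher and 1 (12.5%) lower in either infarcted group over sham. Of all genes, 13.9% (MI+FG-3149) and 15.9% (MI+IgG) were called lower over sham. In bulk tissue, more cells of a type and more RNA per cell cannot be told apart. The part of fibroblasts in the Nox4 difference was not tested. By the root mean square difference of centred log2 CPM over 13 libraries, the 5 tested genes with the pattern most like that of Nox4 were Pamr1 (0.27), Itgbl1 (0.28), Postn (0.30), Ctgf (0.31) and Lrp8 (0.32). Postn is also on the activated fibroblast list. With 1 library left out at a time, 3 to 5 of them stayed among the 5. Ctgf, which encodes the antigen of FG-3149, averaged 248 ± 57.1 CPM in MI+FG-3149, 324 ± 74.3 in MI+IgG and 42.5 ± 4.58 in sham. It was not called between the infarcted groups (log2 fold change -0.39 ± 0.19, adjusted p = 0.394, edgeR).

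Cybb, on the minus strand of the X chromosome (chrX:9435252-9469324, mm10), had 18.0, 17.4, 22.8, 17.4 and 20.2 CPM in MI+FG-3149, 16.8, 20.7, 25.0, 21.4 and 23.4 CPM in MI+IgG, and 14.5, 11.2 and 15.2 CPM in sham. All infarcted libraries exceeded all sham libraries. The log2 fold change was 0.66 ± 0.13 in MI+IgG over sham (adjusted p = 0.000861, edgeR) and 0.49 ± 0.13 in MI+FG-3149 over sham (adjusted p = 0.0101, edgeR). The call for MI+FG-3149 was lost without sham replicate 2 (0.37, adjusted p = 0.0794). Between the infarcted groups it was -0.17 with a 95% interval of -0.40 to 0.06, and was not called. Cyba, the shared p22phox subunit (chr8:122424771-122432940, minus strand), stayed closer to sham. Its levels were 24.1, 23.3, 32.7, 26.1 and 24.2 CPM in MI+FG-3149, 26.1, 25.2, 24.7, 26.2 and 27.3 CPM in MI+IgG, and 24.3, 23.4 and 22.2 CPM in sham. The MI+IgG libraries all lay above sham, yet the log2 fold change of 0.15 was not called, with a 95% interval of -0.05 to 0.35. MI+FG-3149 replicate 3 was the highest library of its group for both Cybb and Cyba.

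Macrophage and monocyte markers moved with Cybb. The sum over 13 genes was 520 to 852 CPM in MI+FG-3149, 489 to 753 in MI+IgG and 366 to 381 in sham, and MI+FG-3149 replicate 3 held the highest sum. Over sham, 11 of the 13 (84.6%) were called higher in MI+FG-3149 and 10 (76.9%) in MI+IgG, against 15.6% and 17.8% of all genes. None of the 13 was called between the infarcted groups, against 1.07% of all genes. The part of these cells in the Cybb difference was not tested. Neutrophil markers summed to 12.5 to 17.8 CPM in MI+FG-3149, 10.2 to 19.6 in MI+IgG and 14.3 to 16.9 in sham, and Ly6g and Elane were at 0 in all libraries. None of the 4 neutrophil markers tested was called in any comparison. The shares of all genes were 33.7% in MI+IgG over sham and 29.5% in MI+FG-3149 over sham. With 4 markers, a count of none cannot be told apart from these shares. The 5 genes most like Cybb in pattern were Mcm6 (0.11), Cdkl1 (0.12), Rap2b (0.12), Rab3d (0.13) and Cst3 (0.13), by the same measure. They changed with the libraries used: 1 to 4 of them remained when 1 library was left out.

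Of 15 other NADPH oxidase genes, 9 were tested and 3 (33.3%, against 17.8% of all genes) were called higher in MI+IgG over sham, with none lower. BC017643 and Ncf1 were among those called, and the median log2 fold change of the 9 was 0.56, against 0.00 over all genes. Ncf1 encodes p47phox, a cytosolic partner of NOX2. Ncf1 averaged 9.21 ± 1.58 CPM in MI+FG-3149, 8.67 ± 1.97 in MI+IgG and 5.56 ± 0.142 in sham. Its log2 fold change over sham was 0.73 ± 0.18 in MI+FG-3149 (adjusted p = 0.00487, edgeR) and 0.64 ± 0.17 in MI+IgG (adjusted p = 0.00864, edgeR). With MI+FG-3149 over sham 3 genes were called higher (Ncf1, BC017643 and Poldip2), or 33.3%, against 15.6% of all genes. The count was 1 without MI+FG-3149 replicate 3, sham replicate 1 or sham replicate 2 and with log2(RPKM + 1) unfiltered. Ncf1 was called in all 25 alternatives, BC017643 in 15 of them and Poldip2 in 12. Between the infarcted groups 0 of the 9 were called by edgeR, and 1 had an unadjusted p under 0.05, Poldip2, which encodes a p22phox-binding protein (0.17 ± 0.05, adjusted p = 0.119, edgeR). Nox3 and Noxa1 were at 0 in all 13 libraries, and Nox1, Duox2, Duoxa1 and Duoxa2 were below the filter.

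The 3 superoxide dismutases did not move together. The gene of the extracellular enzyme was higher in both infarcted groups than in sham and that of the mitochondrial enzyme lower, while that of the cytosolic enzyme was lower in MI+IgG and was not called in MI+FG-3149. Sod3 (chr5:52363804-52369738, plus strand) had 56.4, 52.6, 60.7, 47.2 and 50.6 CPM in MI+FG-3149, 39.3, 66.9, 57.4, 50.8 and 47.4 CPM in MI+IgG, and 30.8, 33.7 and 33.7 CPM in sham. Both infarcted groups lay above sham and overlapped each other. Its log2 fold change was 0.71 ± 0.14 in MI+FG-3149 over sham (adjusted p = 0.00206, edgeR) and 0.68 ± 0.14 in MI+IgG over sham (adjusted p = 0.00186, edgeR). Between the infarcted groups it was 0.03, with a 95% interval of -0.22 to 0.27. As a share of summed superoxide dismutase RPKM, Sod3 made up 4.16% to 5.32% in MI+FG-3149, 4.05% to 7.13% in MI+IgG and 2.73% to 3.01% in sham.

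Sod2 (chr17:13007839-13018119, plus strand) had 589.6, 551, 666, 631 and 612 CPM in MI+FG-3149, 556, 489.8, 553, 530.3 and 537 CPM in MI+IgG, and 707, 679 and 668 CPM in sham. All infarcted libraries lay below sham, the MI+FG-3149 replicate 3 library by a small margin. The log2 fold change was -0.36 ± 0.06 in MI+IgG over sham (adjusted p = 0.000154, edgeR). Against the same sham libraries it was -0.17 ± 0.06 in MI+FG-3149 (adjusted p = 0.0423, edgeR). The MI+FG-3149 call was lost without MI+FG-3149 replicate 1, 2 or 5, MI+IgG replicate 4, or any 1 sham library (adjusted p between 0.0623 and 0.158), and with upper quartile factors (0.0508), no filter (0.0507) or only both compared groups (0.0521). MI+FG-3149 over MI+IgG gave 0.19 ± 0.05, which was not called (adjusted p = 0.0861, edgeR), but was called without MI+FG-3149 replicate 2 (0.23, adjusted p = 0.0413) and with DESeq2 (adjusted p = 0.0215). In last-exon counts it was 0.13 (adjusted p = 0.377), not called. The last exon is 80.9% of the Sod2 transcript but held 51.4% to 54.2% of its exon reads in MI+FG-3149, 56.1% to 60.4% in MI+IgG and 61.0% to 64.9% in sham. The order of these shares is that of the series-wide coverage, and in counts of the last exon alone the Sod2 difference from sham was larger, at -0.29 in MI+FG-3149 (adjusted p = 0.00216, edgeR) and -0.41 in MI+IgG (adjusted p = 3.64e-05, edgeR).

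Sod1 (chr16:90220742-90226324, plus strand), whose promoter above carries the antioxidant response element core, had 219, 223, 241, 237 and 233 CPM in MI+FG-3149, 200.4, 193, 203, 203 and 210.04 CPM in MI+IgG, and 228, 237 and 231 CPM in sham. Every MI+IgG library lay below every library of the other groups, and MI+FG-3149 overlapped sham. Such a lack of overlap between the infarcted groups occurred in 3.14% of all genes. The log2 fold change was 0.19 ± 0.04 in MI+FG-3149 over MI+IgG (adjusted p = 0.034, edgeR), a 1.14-fold difference. It was -0.20 ± 0.05 in MI+IgG over sham (adjusted p = 0.00389, edgeR) and -0.01 ± 0.05 in MI+FG-3149 over sham, with a 95% interval of -0.11 to 0.09. The call between the infarcted groups was lost without MI+FG-3149 replicate 3, 4 or 5, MI+IgG replicate 2, 3 or 4, or any 1 sham library (adjusted p between 0.0502 and 0.101). It was also lost with only both compared groups (adjusted p = 0.0714), with counts thinned to equal depth (0.0673) and in counts of the last exon alone (0.15, adjusted p = 0.287), while the direction held in all 25 alternatives. The last exon held 27.3% to 30.3% of Sod1 exon reads in MI+FG-3149, 29.1% to 33.8% in MI+IgG and 31.8% to 34.1% in sham.

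**Figure D4:**
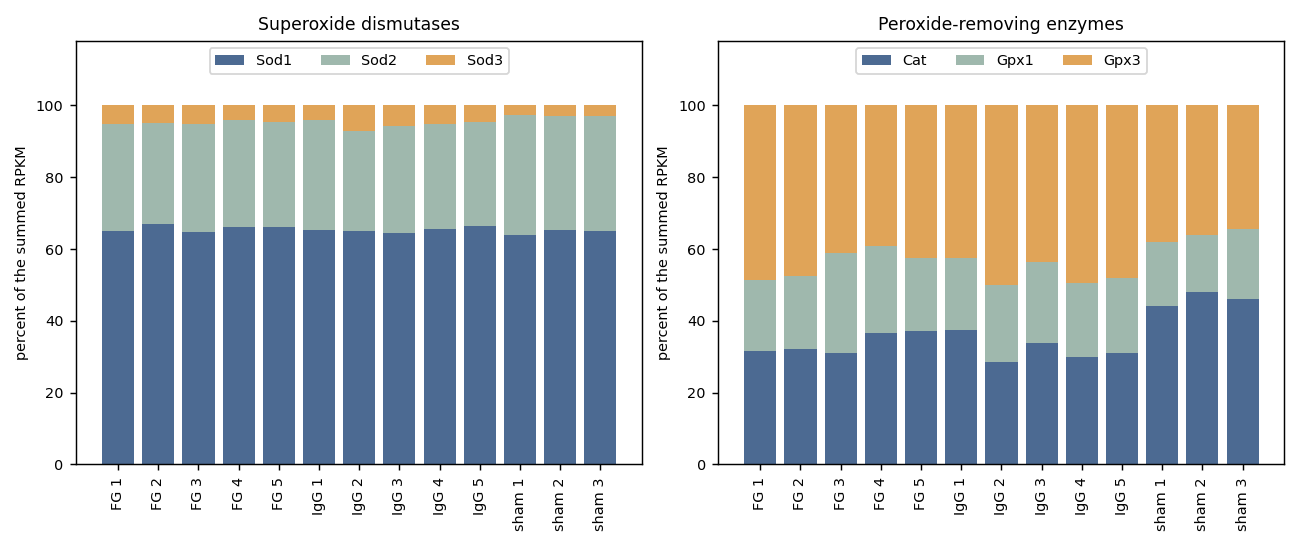
Share of each enzyme in the summed RPKM of the 3 superoxide dismutases (left) and of Cat, Gpx1 and Gpx3 (right), in percent, with a bar for each library. Cat took 44.1% to 48.0% of its sum in sham and at most 37.3% in infarcted libraries.

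Among the enzymes that remove hydrogen peroxide, both glutathione peroxidases were higher in infarcted hearts, and catalase was not called. Gpx1, the ubiquitous cytosolic and mitochondrial enzyme (chr9:108339080-108340344, plus strand), had 83.8, 85.5, 117, 96.5 and 86.4 CPM in MI+FG-3149, 71.0, 100.1, 98.8, 95.9 and 94.0 CPM in MI+IgG, and 49.1, 45.6 and 52.9 CPM in sham. MI+IgG replicate 1 stood low and MI+FG-3149 replicate 3 high in its group, and all infarcted libraries lay above sham. Its log2 fold change was 0.93 ± 0.13 in MI+FG-3149 over sham (adjusted p = 0.000143, edgeR) and 0.91 ± 0.13 in MI+IgG over sham (adjusted p = 0.000101, edgeR). Between the infarcted groups Gpx1 differed by 0.03, with a 95% interval of -0.20 to 0.25. Gpx1 is also abundant in red cells: 6 erythroid genes summed to 327 to 996 CPM in MI+FG-3149, 232 to 1050 in MI+IgG and 384 to 600 in sham. These sums overlapped between all groups, and none of the 4 erythroid genes tested was called. Of all genes, 33.7% were called in MI+IgG over sham and 29.5% in MI+FG-3149 over sham. A count over 4 genes is too small to tell apart from these shares. The part of red cells in the Gpx1 difference was not tested.

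Gpx3, the secreted glutathione peroxidase (chr11:54902854-54910382, plus strand), had 299.6, 292, 248, 229 and 263 CPM in MI+FG-3149, 217, 335, 281, 331 and 311 CPM in MI+IgG, and 153, 149 and 136 CPM in sham. The lowest infarcted library, MI+IgG replicate 1, was still above the highest sham library. For Gpx3 the log2 fold change was 0.87 ± 0.13 in MI+FG-3149 over sham (adjusted p = 0.000431, edgeR) and 1.02 ± 0.13 in MI+IgG over sham (adjusted p = 8.89e-05, edgeR). The difference of the infarcted groups was -0.15, with a 95% interval of -0.38 to 0.09. Cat (chr2:103453904-103485153, minus strand) had 326, 334, 315, 359 and 384 CPM in MI+FG-3149, 320.2, 321, 367, 337 and 337 CPM in MI+IgG, and 296, 333 and 307 CPM in sham. All 3 groups overlapped. Its log2 fold change was 0.14 in MI+FG-3149 over sham (95% interval 0.00 to 0.28, adjusted p = 0.122, edgeR) and 0.11 in MI+IgG over sham (-0.03 to 0.25, adjusted p = 0.215, edgeR). Of the summed RPKM of Cat, Gpx1 and Gpx3, Cat made up 31.0% to 37.0% in MI+FG-3149, 28.5% to 37.3% in MI+IgG and 44.1% to 48.0% in sham. Cat and Gpx3 thus changed places in this sum, Gpx3 making up 39.3% to 48.7% in MI+FG-3149, 42.5% to 49.9% in MI+IgG and 34.5% to 38.2% in sham.

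The other peroxide and thiol enzymes made a list of 24 with 21 tested. In MI+IgG over sham 5 (23.8%) were called higher and 5 (23.8%) lower, against 17.8% and 15.9% of all genes, with a median log2 fold change of 0.04. Prdx3, the mitochondrial peroxiredoxin, averaged 317 ± 6.64 CPM in MI+FG-3149, 316 ± 18.7 in MI+IgG and 410.5 ± 18.0 in sham (log2 fold change of MI+IgG over sham -0.38 ± 0.05, adjusted p = 3.38e-05, edgeR). Glrx2, mainly a mitochondrial glutaredoxin, was lower by a similar amount (-0.48 ± 0.07, adjusted p = 2.98e-05, edgeR). Gpx7, a peroxidase of the endoplasmic reticulum, was higher (0.71 ± 0.13, adjusted p = 0.000292, edgeR), as was Srxn1, which encodes sulfiredoxin, the enzyme that restores overoxidised peroxiredoxins (0.53 ± 0.11, adjusted p = 0.00098, edgeR). The 5 higher calls became 3 without sham replicate 1, and the 5 lower calls 3 without sham replicate 1 or 2 and 2 in last-exon counts. Gpx5 was at 0 in all 13 libraries.

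Of 30 tested genes of glutathione and NADPH supply, 3 (10.0%) were called higher and 8 (26.7%) lower in MI+IgG over sham, against 17.8% and 15.9% of all genes. The higher count was 5 without MI+IgG replicate 1 or 3. Those named by p were all lower: Nnt, the mitochondrial enzyme that makes NADPH from NADH (-0.53 ± 0.06, adjusted p = 8.43e-06, edgeR), and the glutathione transferases Gstm7 (-0.65), Gstk1 (-0.73) and Gstm1 (-0.44). Nnt averaged 1297 ± 61.8 CPM in MI+FG-3149, 1209 ± 97.8 in MI+IgG and 1743 ± 98.7 in sham. Among 16 tested genes of other oxidant-producing enzymes, 3 (18.8%) were called higher and 2 (12.5%) lower in MI+IgG over sham, and 1 lower without sham replicate 1. The inducible cyclooxygenase gene Ptgs2 averaged 0.953 ± 0.336 CPM in MI+FG-3149, 1.72 ± 0.365 in MI+IgG and 0.122 ± 0.0705 in sham (log2 fold change of MI+IgG over sham 3.67 ± 0.47, adjusted p = 1.38e-05, edgeR). The sham mean of 0.122 CPM rests on very few reads, so this fold change has no firm size and depends on the scale. On log2(RPKM + 1) the Ptgs2 difference was 0.46, still called. Ptgs1, the constitutive cyclooxygenase gene, rose by 0.68 and Cyp1b1, a cytochrome P450 gene, by 1.11 (0.63 on log2(RPKM + 1)). Maob, encoding the mitochondrial outer membrane enzyme monoamine oxidase B, had a log2 fold change of -0.63 in MI+IgG over sham (edgeR).

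Hmox1 (chr8:75093618-75100593, plus strand) had 9.92, 9.70, 11.9, 11.2 and 10.4 CPM in MI+FG-3149, 8.79, 12.3, 12.8, 13.3 and 15.2 CPM in MI+IgG, and 5.80, 5.01 and 5.97 CPM in sham. All infarcted libraries lay above sham, and the infarcted groups overlapped. Hmox1 had a log2 fold change of 0.93 ± 0.15 in MI+FG-3149 over sham (adjusted p = 0.000252, edgeR) and 1.16 ± 0.15 in MI+IgG over sham (adjusted p = 1.42e-05, edgeR), or 1.90-fold and 2.24-fold. MI+FG-3149 over MI+IgG gave -0.24, with a 95% interval of -0.48 to 0.01, and was not called. The 5 genes most like Hmox1 were Slamf9 (0.11), Slc39a6 (0.12), Pcolce2 (0.12), C1qb (0.13) and Amot (0.14) by the same root mean square difference. Of these, 1 to 5 remained when 1 library was left out. C1qb is on the list of macrophage markers whose sums are given with Cybb, and the part of macrophages in the Hmox1 difference was not tested.

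Most regulators and targets of NRF2 on the list were higher in MI+IgG than in sham. Of 24 tested genes, 16 (66.7%) were called higher and 2 (8.33%) lower in MI+IgG over sham, against 17.8% and 15.9% of all genes, and their median log2 fold change was 0.35. The higher count was 9 without sham replicate 1, and the lower count was 1 without sham replicate 2 or 3. Mafk and Maff, small MAF proteins that pair with NRF2 on DNA, were higher by 1.08 ± 0.10 (adjusted p = 1.01e-06, edgeR) and 1.66 ± 0.20 (adjusted p = 9.4e-06, edgeR). Mafk averaged 72.7 ± 8.45 CPM in MI+FG-3149, 82.4 ± 9.14 in MI+IgG and 38.9 ± 2.08 in sham. Gstm1, a glutathione transferase gene, was among the lower ones. Another 6 genes of the list were not called, all named here after their values were seen. They were Blvrb (0.18), Gclc (0.09), Txnrd1 (0.04), Aox1 (0.02), Me1 (-0.02) and Bach1 (-0.13). Among the 16 called higher, also named after their values were seen, were Sqstm1 (0.56), Gclm (0.49), Abcc1 (0.48), Slc7a11 (0.39) and Nqo1 (0.32). The 16 pool regulators of NRF2 with its targets. The Nqo1 call held in all 25 alternatives, and that of Keap1 (0.17) in 17 of them. Over sham, MI+FG-3149 had 11 (45.8%) called higher and 1 (4.17%) called lower, against 15.6% and 13.9% of all genes, with a median of 0.26. The 11 became 7 without MI+FG-3149 replicate 4 or sham replicate 1. Several genes stand on more than 1 of these lists. The lists too were chosen with earlier results of these data known, so their shares are a description.

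Of 21 tested genes of haem and iron handling, 4 (19.0%) were called higher and 5 (23.8%) lower in MI+IgG over sham, against 17.8% and 15.9% of all genes. The 4 became 7 with DESeq2 and 2 without sham replicate 1 or 2, and the 5 became 3 without sham replicate 1 or 3 and with log2(RPKM + 1) unfiltered. Ftl1, the ferritin light chain, averaged 399 ± 19.9 CPM in MI+FG-3149, 451 ± 41.7 in MI+IgG and 271 ± 26.4 in sham (log2 fold change of MI+IgG over sham 0.74 ± 0.08, adjusted p = 1.66e-06, edgeR). Trf, which encodes transferrin, was higher by 0.84 ± 0.19. Slc40a1, the gene of the iron exporter ferroportin, was lower (log2 fold change -0.76 ± 0.19, adjusted p = 0.00871, edgeR), a call lost without sham replicate 2 (-0.56, adjusted p = 0.0532) and with a replicate block (-0.69, adjusted p = 0.079). Aco1, iron regulatory protein 1, was lower as well (-0.23 ± 0.06).

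**Figure D5:**
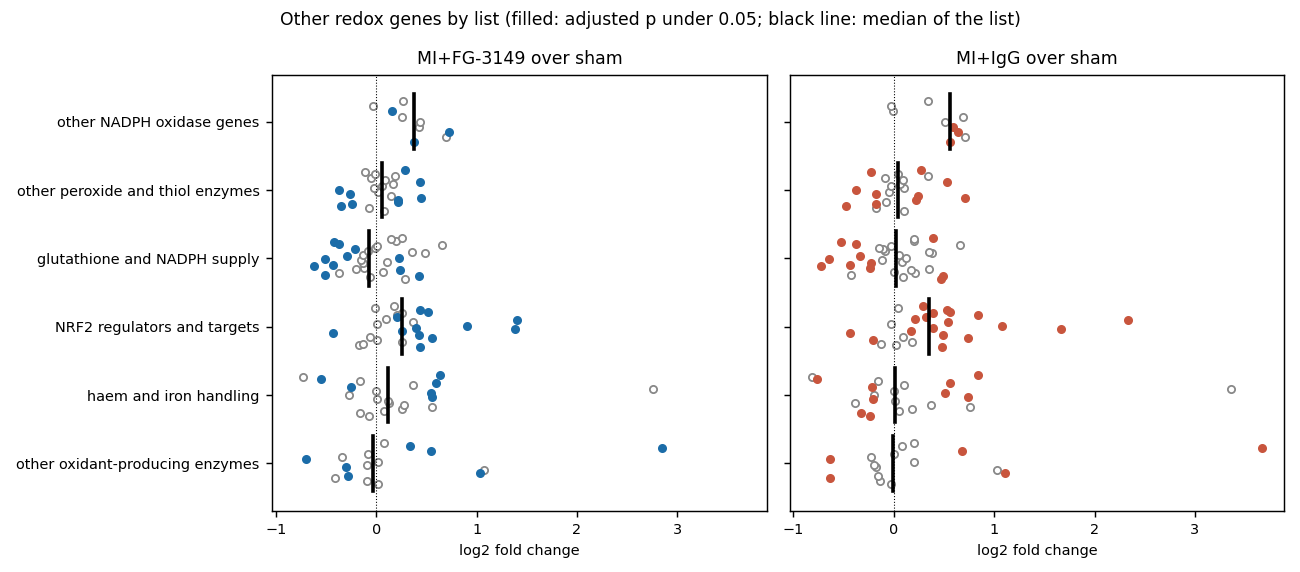
Log2 fold change (x axis) of each tested gene on 6 lists of other redox genes (y axis) in MI+FG-3149 over sham (left) and MI+IgG over sham (right). Filled points had an adjusted p under 0.05 and black lines are list medians; the median of the NRF2 list was 0.26 on the left and 0.35 on the right.

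Across the 6 lists, 111 distinct genes were tested, and 1 was called in MI+FG-3149 over MI+IgG by edgeR, or 0.901%, near the 1.07% of all genes. At an unadjusted p under 0.05 there were 15, or 13.5%, against 13.8% of all genes. The called gene was Glrx5, a mitochondrial glutaredoxin of iron-sulfur cluster assembly. It averaged 72.0 ± 7.88 CPM in MI+FG-3149, 58.6 ± 2.30 in MI+IgG and 61.9 ± 1.5 in sham, and all MI+FG-3149 libraries lay above all MI+IgG libraries. The log2 fold change was 0.30 ± 0.06 (adjusted p = 0.0262, edgeR), and the call was lost without MI+FG-3149 replicate 2, 3 or 4 or MI+IgG replicate 2 or 5, and in 6 other alternatives. Among the alternatives 3 more list genes were called, and they are named after their values were seen. Fth1, the ferritin heavy chain on the NRF2 and the haem and iron lists, was not called (0.21, adjusted p = 0.0812, edgeR), but was called higher with DESeq2 (adjusted p = 0.0189), with a replicate block (0.0357) and without MI+FG-3149 replicate 1 (0.0462) or MI+IgG replicate 3 (0.0344). Romo1, which encodes a mitochondrial membrane protein linked to oxidant production, was likewise not called (0.26, adjusted p = 0.0789, edgeR), but was called higher with DESeq2 (0.0339) and a replicate block (0.0126). The metallothionein gene Mt2 was called lower without MI+IgG replicate 1 (-1.11, adjusted p = 0.0472). For the 10 genes, 3 had an unadjusted p under 0.05 in this comparison (Nox4, Sod1 and Sod2), against 13.8% of all genes.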

How the data were processed

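RNA sequencing was read from 13 mouse heart libraries grouped by their titles. Per the labels' protocols, a stranded mRNA kit was used on 500 ng of RNA, and single reads of 75 bases came from 1 flow cell. Unnormalized estimated counts of genes and exons were deposited by the authors, with RPKM values per RefSeq transcript. Per the submitters' processing notes the build was mm10. The sources used here do not name the aligner, the counter, its strand setting or how it treated multiply mapped reads, so genes with processed copies (Gpx4, Ftl1 and Fth1 among them) and overlapping genes are uncertain to that extent. Whole numbers (tolerance 0.01) made up 79.4% of the nonzero gene values.

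Counts were rounded, 379 entries with a repeated symbol (0.0% of counts) were left out, and genes were kept by filterByExpr (13434) and scaled by TMM in edgeR 4.0.16 (R 4.3.3). All 13 libraries were fitted together without covariates by the robust quasi-likelihood method, a prior count of 2 served for log2 CPM, and p-values were adjusted by Benjamini-Hochberg over all genes tested. Standard errors are the log2 fold change over the root of F. Intervals are 95% from the t distribution of the fit, for the log2 fold change, and rest on the spread between these libraries. The labels do not say outright that replicates are separate animals, so p-values and intervals rest on a spread between libraries that may be technical.

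The 10 genes, the gene lists and the rule for names were chosen with earlier results of these data known. The rule named all 10 genes, up to 4 called genes with the smallest p per list and comparison, list genes at 0 in all libraries, the 5 genes most like Nox4, Cybb and Hmox1, and Ctgf. One gene within this rule is not reported here. Alternatives used DESeq2 1.42.0, limma 3.58.1, other size factors, filters, RPKM with pseudocounts of 1 and 0.1 and a minimum of 0.1, thinning to 10954901 counts, a replicate block, and left-out libraries. The statistics were also run on simulated data. The outcome is not given here, so it adds nothing to the calls above. Promoter sequence is from RefSeq, GRCm38.p6.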

Additional observations from a re-analysis of the deposited data

Results flagged for a closer look

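Gpx1 in MI+IgG replicate 1 stood apart from its group: it had 71.0 CPM, against 94.0 to 100.1 CPM in the other 4 MI+IgG libraries, a gap of 0.79 of the range. Of 20 groups of 5 libraries examined over the 10 genes, 1 held such a library, and chance gives about 1 in 20.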

How the results depend on the processing

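Each comparison was refitted under 25 alternatives, 1 of which, counts in the last exon, was chosen after seeing the data. In MI+IgG over sham 8 of the 10 genes were called under all 25, and in MI+FG-3149 over sham 5 to 7 were. In MI+FG-3149 over MI+IgG the count of 1 became 2 with DESeq2, and 0 with only both compared groups, with thinned counts and with last-exon counts. It ranged from 0 to 2 with a library left out, being 2 without MI+FG-3149 replicate 2 or MI+IgG replicate 1, and 0 without MI+FG-3149 replicate 3, 4 or 5, MI+IgG replicate 2, 3 or 4, or any sham library. Over all genes the 144 calls of that comparison became 278 with DESeq2, 83 with only both groups, 91 with log2(RPKM + 0.1), 71 with log2(RPKM + 1) unfiltered and 81 with last-exon counts. With a library left out they ranged from 68 (without MI+IgG replicate 2) to 271 (without MI+IgG replicate 1), and were 76, 74 and 84 without MI+FG-3149 replicates 3, 4 and 5, 90 without MI+IgG replicate 5 and 94 without sham replicate 1. The cause was not tested. The other gene counts ranged from 3329 to 4808 (MI+IgG over sham) and from 2641 to 4088 (MI+FG-3149 over sham) with a library left out, and the members' ranges were 8 to 8 and 5 to 7. Differences near 0 turned in sign, none of them called. In MI+FG-3149 over MI+IgG, Cyba was -0.0033 with voom, -0.024 thinned, -0.029 with log2(RPKM + 1) with and without a filter, -0.030 with log2(RPKM + 0.1), -0.051 in the last exon and -0.085 to 0.052 with a library left out. Cat was -0.00068, -0.00068, -0.00070 and -0.0054 in the RPKM and last-exon fits, and -0.013 to 0.062 with a library left out. Gpx1 was -0.00091, -0.00091, -0.00088 and -0.0079 there, and -0.065 to 0.063. Sod3 ranged from -0.055 to 0.13. In MI+FG-3149 over sham, Sod1 ranged from -0.025 to 0.0099. Replicate numbers did not pair the libraries (correlations of deviations -0.042 to 0.178, 2 of 11 pairs over 0.1, and 3 of 13 libraries closest to their own number). A replicate block gave 4139, 215 and 3576 calls over all genes in MI+IgG over sham, MI+FG-3149 over MI+IgG and MI+FG-3149 over sham, and 8, 1 and 7 among the 10 genes. Depth limits Nox4 in sham, where a library held 10 to 17 counts.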

Other observations

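The 2 ferritin chains did not move together, a pair chosen after their values were seen. Fth1, the heavy chain with ferroxidase activity, averaged 1548 ± 119 CPM in MI+FG-3149, 1338 ± 84.2 in MI+IgG and 1543 ± 54.8 in sham. It was called lower in MI+IgG over sham (log2 fold change -0.21 ± 0.06, adjusted p = 0.0193, edgeR), while Ftl1 was called higher (0.74 ± 0.08, adjusted p = 1.66e-06, edgeR). The Fth1 call was lost without sham replicate 2 or 3 (adjusted p up to 0.0842). The difference between both chains was not tested.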
